A study of Mus musculus with 40 samples.

Results

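The insulin-like growth factor (IGF) axis was followed through mouse colon tumors by 10 genes out of the 45706 in the expression tables, chosen by symbol: the ligands Igf1 and Igf2, the receptors Igf1r and Igf2r, and the binding proteins Igfbp2, Igfbp3, Igfbp4, Igfbp5, Igfbp6 and Igfbp7. Each symbol matched 1 row, and all 10 were found. RNA had been sequenced from 40 libraries in 10 groups of 4. Epithelial cells (EpCAM+ CD45-) and stromal cells (EpCAM- CD45-) came from colon tumors and from healthy colon, while neutrophils (Ly6G+, Ly6C low) and monocytes (Ly6G-, Ly6C high) came from 3 sources each: tumors, tumor-bearing blood and healthy blood. Tumor-bearing animals were Cdx2CreERT2 - Apc fl/fl mice of the mixed C57Bl6/Sv129 background that received 1 intraperitoneal dose of tamoxifen at 25 mg/kg when 8 to 10 weeks old according to the labels. In these mice a Cre recombinase driven by Cdx2, a gene of the intestinal epithelium, deletes both floxed copies of Apc, a suppressor of Wnt signaling. Healthy animals were C57Bl6 mice with neither the transgene nor tamoxifen, so that tumor, strain, transgene and drug cannot be told apart in any comparison with them. The titles of 1 neutrophil and 3 monocyte blood libraries name 2 animals.

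In this axis the ligands IGF1 and IGF2 are secreted growth factors that signal through the tyrosine kinase IGF1R, while IGF2R, also known as the cation-independent mannose 6-phosphate receptor, takes IGF2 up for degradation and carries lysosomal enzymes. The binding proteins hold IGFs in the extracellular space and, depending on the protein and on the proteases around it, withhold or release them. In the gut, mesenchymal cells are a known source of IGFs for the epithelium above them.

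The genes lie apart in the genome except for Igfbp2 and Igfbp5, which are neighbors on chromosome 1 (mm10, GENCODE M21 coordinates). Igf1 (ENSMUSG00000020053) spans chr10:87858265-87937042 on the plus strand, and Igf2 (ENSMUSG00000048583) spans chr7:142650766-142666816 on the minus strand. Igfbp2 lies at chr1:72824503-72852474 on the plus strand and Igfbp5 at chr1:72857932-72874884 on the minus strand. Igf1 and Igf2 each overlap an antisense gene (Igf1os and Igf2os), Igf2 also overlaps Gm49394 and Mir483 on its own strand, Igf2r overlaps the antisense Airn, and Igfbp7 overlaps Polr2b and Gm34648 on the other strand. Whether strand was used in counting is not given in the sources used here, so reads in those overlaps cannot be assigned with certainty.

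The start regions of both ligands are shown because Igf1 and Igf2 were the members that fell together in the tumor stroma. Each window is the 250 bases before a RefSeq start in GRCm38.p6, written 5' to 3' on the gene's strand, at chr10:87860861-87861110 (plus strand) for Igf1 and chr7:142657497-142657746 (minus strand) for the most downstream of 4 starts of Igf2. Capitals mark matches on either strand to the CCAAT box (CCAAT) and the GC box (GGGCGG).
Igf1: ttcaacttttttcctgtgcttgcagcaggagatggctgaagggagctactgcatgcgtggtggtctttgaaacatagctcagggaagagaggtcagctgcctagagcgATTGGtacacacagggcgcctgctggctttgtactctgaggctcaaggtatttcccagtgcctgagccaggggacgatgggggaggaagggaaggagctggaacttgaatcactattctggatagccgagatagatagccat
Igf2: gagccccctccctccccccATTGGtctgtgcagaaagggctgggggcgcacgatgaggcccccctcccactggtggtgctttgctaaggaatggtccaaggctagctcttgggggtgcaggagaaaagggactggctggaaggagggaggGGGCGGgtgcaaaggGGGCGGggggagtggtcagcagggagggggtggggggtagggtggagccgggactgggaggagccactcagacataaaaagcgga
The Igf1 window held 1 CCAAT box and no GC box, and the Igf2 window held 1 CCAAT box and 2 GC boxes. No other Igf2 window held a CCAAT box, and only the one at chr7:142658805-142659054 held a GC box (1). A CCAAT box was present in 33.9% and a GC box in 32.7% of 32851 windows of this length before mouse gene starts. These matches describe the letters only, and 3 of the 10 genes had a CCAAT box and 5 had a GC box in at least 1 of their windows. Igf2 and Igfbp2 had more than 1 window, so the gene counts do not compare directly with the shares per window.

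Libraries held 10717873 to 38002939 counts on genes, of which mitochondrial genes took 5.34% to 83.9%. Levels are given as RPKM, a read level scaled to gene length and to 1 divisor per library. That divisor was not proportional to the counts on genes, and its ratio to them ran from 0.643 to 1.56 relative to the median. Differences are given as log2 fold changes ± SE from an edgeR fit of counts. A gene was called changed where the adjusted p was below 0.05 and the log2 fold change went past 1.5 in either direction. Markers of the sorted cell types set several libraries apart. The summed RPKM of 10 epithelial markers was 233 and 135 in replicates 1 and 2 labelled tumor stroma, inside the 152 to 379 of tumor epithelial cells, while the sum of 8 endothelial markers there was 4.93 and 4.35 against 39.0 to 176 in healthy stroma. Replicates 3 and 4 of the tumor stroma had endothelial sums of 149 and 157 but a fibroblast sum of 20.7 in each, against 501 to 2709 in healthy stroma. Tumor neutrophils carried epithelial sums of 12.6 to 173, with the highest in replicate 1, against 0.656 to 1.56 in blood neutrophils of tumor-bearing mice. Results on these groups are given with and without the libraries named.

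The transcripts of the axis were not spread evenly over the cell types. By group mean, 7 of the 10 members were highest in healthy stroma, and the same count was obtained on levels scaled by TMM, a between-library scaling factor, in place of RPKM. The share of all genes that were highest in healthy stroma is not given here. The exceptions were Igf1r, which was highest in healthy blood neutrophils, and Igfbp2 and Igfbp3, which were highest by mean in tumor stroma but overlapped healthy stroma.

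**Figure D1:**
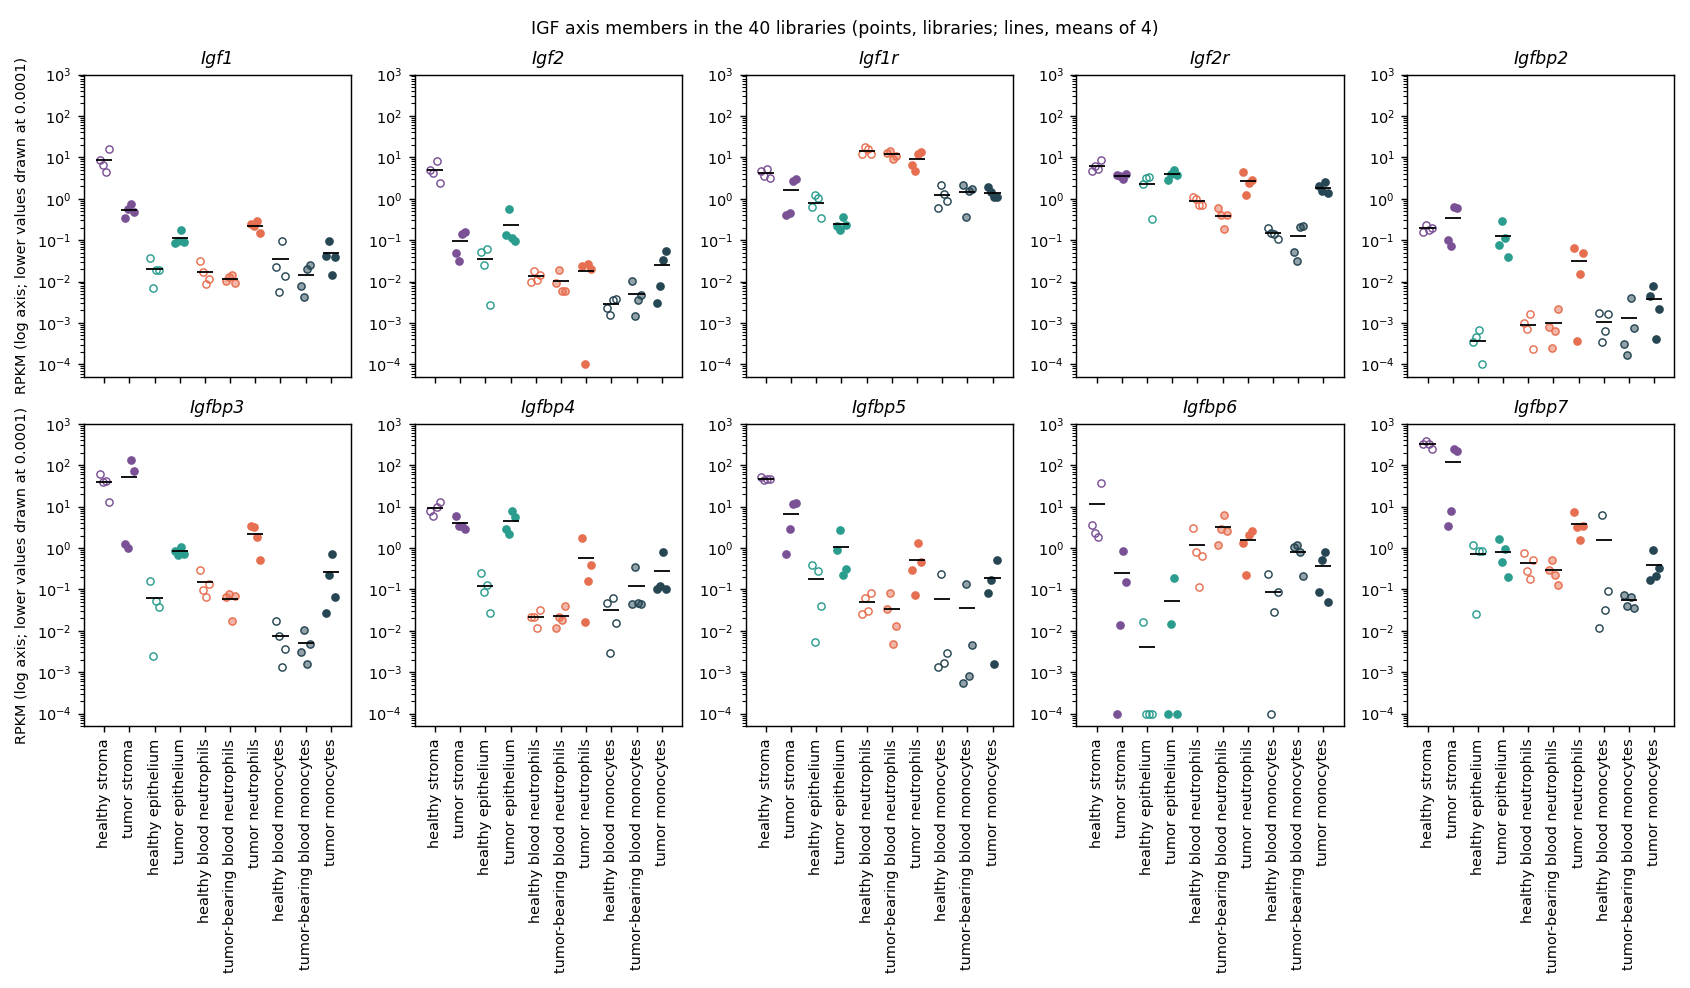
Levels of the 10 IGF axis genes in the 40 libraries, as RPKM on a log axis with values under 0.0001 drawn at 0.0001. Points are libraries, lines are means of 4, colors mark stroma, epithelium, neutrophils and monocytes, and open, half-tone and filled points mark healthy, tumor-bearing blood and tumor sources. Healthy stroma is highest for 7 genes, with Igfbp7 at 251 to 375 RPKM, while the neutrophil groups lead for Igf1r.

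Igf1, the main mediator of growth hormone action, was a transcript of healthy stroma. Its levels there were 8.61, 6.62, 4.42 and 15.8 RPKM in replicates 1 to 4. The tumor stroma followed at 0.341, 0.576, 0.728 and 0.480 RPKM, and tumor neutrophils at 0.248, 0.217, 0.289 and 0.147 RPKM. These 3 ranges did not overlap. Each of the other 7 groups had a mean of at most 0.112 RPKM, and from tumor neutrophils downward each group overlapped the next in order. Igf2, the fetal growth factor of the pair, was measured at 4.97, 4.22, 7.97 and 2.43 RPKM in healthy stroma. The next group, tumor epithelium, had 0.134, 0.568, 0.112 and 0.0935 RPKM, entirely below the healthy stroma and overlapping the tumor stroma at 0.0314 to 0.160 RPKM. In neutrophils and monocytes Igf2 stayed at or below 0.0560 RPKM in each of 24 libraries, with at most 23 counts in a library.

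Igf1r, the signaling receptor, had its highest levels in neutrophils. Healthy blood neutrophils had 11.7, 17.3, 15.7 and 11.8 RPKM, blood neutrophils of tumor-bearing mice 12.9, 14.3, 9.32 and 10.8 RPKM, and tumor neutrophils 6.55, 4.68, 12.01 and 13.3 RPKM. The order of these 3 groups was within their spread. Healthy stroma came next at 4.77, 3.53, 5.22 and 3.13 RPKM, overlapping only the low end of the tumor neutrophils. Monocytes from the 3 sources had means of 1.22 to 1.46 RPKM, and tumor epithelium had the lowest mean, 0.251 RPKM. The insulin receptor Insr, the closest relative of Igf1r, was measured at 4.35 ± 0.580 RPKM (SD, n = 4) in healthy blood neutrophils and 4.83 ± 0.469 in healthy blood monocytes. The ratio of Igf1r to Insr was therefore 2.88 to 3.84 in those neutrophils and 0.138 to 0.410 in those monocytes, without overlap.

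Igf2r differed from Igf1r in being low in blood neutrophils, with means of 0.876 RPKM in healthy and 0.389 RPKM in tumor-bearing mice. Its means in blood monocytes were 0.147 RPKM in healthy and 0.129 RPKM in tumor-bearing mice. Healthy stroma had 6.12 ± 1.71 RPKM (SD, n = 4), tumor epithelium 3.85 ± 0.831 and tumor stroma 3.54 ± 0.398. Healthy stroma and the 5 groups after it, down to tumor monocytes at 1.85 RPKM, overlapped neighbor by neighbor. Healthy blood neutrophils, next in order, did not overlap the tumor monocytes, although their 0.692 to 1.12 RPKM lay within the 0.327 to 3.37 RPKM of healthy epithelium. The ratio of Igf2r to Igf1r ran from 0.0323 in blood neutrophils of tumor-bearing mice to 16.1 in tumor epithelium, as means of 4 libraries.

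Among the binding proteins, Igfbp7, which binds IGFs weakly and is deposited around vessels, was the most abundant in healthy stroma with 321, 375, 331 and 251 RPKM. It made up 74.7% ± 4.79 (SD, n = 4) of the summed RPKM of Igfbp2 to Igfbp7 there. Igfbp5, a matrix-bound binding protein, held a narrow range of 42.9 to 51.2 RPKM in healthy stroma, and Igfbp3, the main carrier of IGFs in serum, had 60.2, 39.9, 41.9 and 13.1 RPKM. Igfbp4, a substrate of the protease pregnancy-associated plasma protein A, was at 5.79 to 12.9 RPKM. Igfbp6, which prefers IGF2, was uneven in healthy stroma, with 3.62, 2.29, 1.81 and 37.6 RPKM. Replicate 4, the high one, also had the highest fibroblast sum, 2709 RPKM against 501 to 781 in the others. Igfbp2 did not exceed 0.622 RPKM in any library and had 0 counts after rounding in each of the 4 healthy epithelial libraries.

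Make-up of the binding proteins differed by cell type. Igfbp4 took 59.0% ± 23.0 (SD, n = 4) of the summed RPKM in tumor epithelium, where the sum was 7.49 RPKM, far below the 425 RPKM of healthy stroma. In the blood of tumor-bearing mice the leading binding protein was Igfbp6, with 85.4% ± 9.80 in neutrophils and 78.8% ± 11.1 in monocytes, at sums of 3.59 and 1.03 RPKM. In healthy blood it took 52.7% ± 20.1 in neutrophils, at a mean sum of 1.81 RPKM. In healthy blood monocytes Igfbp7 at 42.6% ± 39.6 and Igfbp6 at 35.3% ± 31.8 were within their spread, at sums of 0.125 to 6.46 RPKM. These monocyte shares rest on few reads outside replicate 2, with 1, 349, 2 and 6 counts of Igfbp7 and 18, 0, 2 and 6 of Igfbp6 in replicates 1 to 4.

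**Figure D2:**
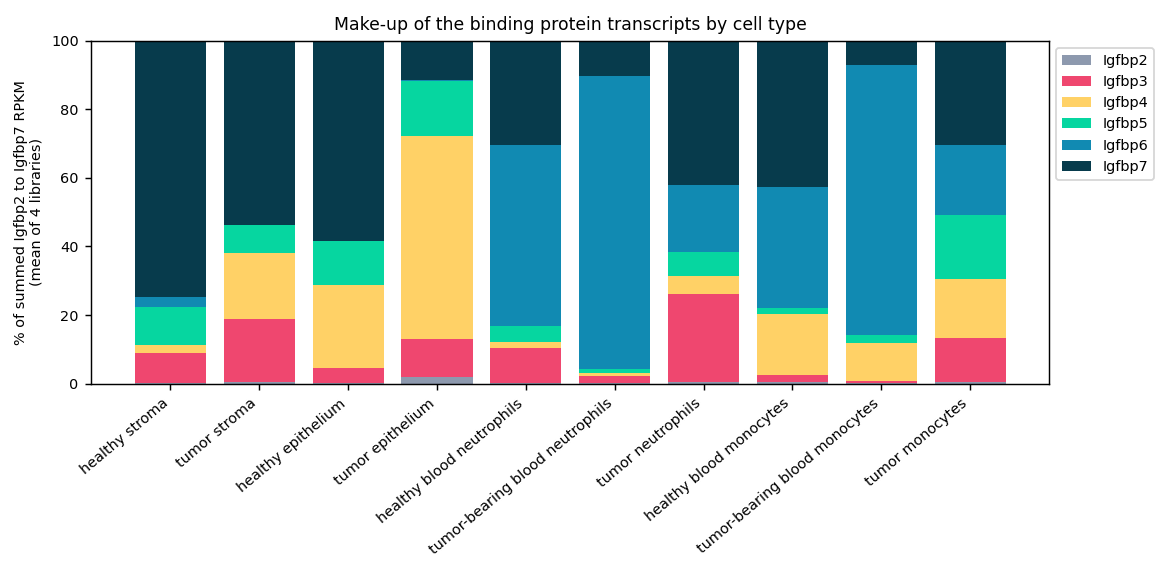
Share of each binding protein in the summed Igfbp2 to Igfbp7 RPKM, as stacked bars of the mean percentage over the 4 libraries of each group. Igfbp7 fills 74.7% of the healthy stromal bar, Igfbp4 59.0% of the tumor epithelial bar and Igfbp6 85.4% of the bar for blood neutrophils of tumor-bearing mice.

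Stroma and epithelium of healthy colon were compared to place the axis in the normal tissue. All 10 members had higher RPKM in every stromal library than in every epithelial library, against 37.4% of all 18468 genes tested. Of the 10, 8 were called higher in stroma and none lower, where 19.4% of all genes were called higher. Igf1 was higher by 7.45 ± 0.859 on the log2 scale (adjusted p = 2.30e-04), Igf2 by 6.42 ± 0.624 (adjusted p = 1.01e-04) and Igfbp4 by 5.33 ± 0.524 (adjusted p = 1.08e-04). Igfbp3, Igfbp5 and Igfbp7 were called with log2 differences of 7.11 to 8.12. Igfbp2 and Igfbp6 had at most 3 counts in each healthy epithelial library and were at least 3.35-fold and at least 115-fold higher in stroma, taking 3 counts per library as the floor. Both receptors were closer between the tissues, with log2 differences of 1.41 ± 0.282 for Igf1r (adjusted p = 0.00354) and 0.73 ± 0.299 for Igf2r (adjusted p = 0.0841), neither past both thresholds. Each of the 8 calls held when any 1 library was left out.

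In the tumor stroma both ligands were lower than in healthy stroma, and edgeR called no receptor or binding protein. DESeq2 and limma-voom called both ligands and Igfbp5, all lower. Igf1 fell by 3.71 ± 0.474 on the log2 scale (adjusted p = 0.00501), and Igf2 fell by 5.36 ± 0.588 (adjusted p = 0.00433). These were 2 lower calls among 10 members tested, where 5.01% of 19081 genes were called lower and 3.39% higher. In RPKM, 7 of the 10 members were lower in every tumor library than in every healthy library, as were 17.3% of all genes. The median log2 fold change of the members was -1.08, and that of all genes 0.03. Both calls held with any 1 library left out, with the highest adjusted p at 0.0165 for Igf1 and 0.0158 for Igf2. Bulk libraries cannot tell fewer cells of a type from less RNA per cell.

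Split by library, the ligands were low in all 4 tumor stromal samples, whereas several binding proteins followed the endothelial markers. As a percentage of the healthy stromal mean, Igf1 was 3.84, 6.50, 8.22 and 5.42 in replicates 1 to 4, and Igf2 was 1.01, 0.641, 2.80 and 3.27. Over the 8 fibroblast markers, among them Col1a1, Dcn and Pdgfra, the median percentage was 0.757, 2.54, 3.67 and 3.06, and all 8 were called lower. Low ligand levels thus occurred in the same libraries as low fibroblast markers, and the part of those cells in the result was not tested. Igfbp3 stood at 3.20, 2.57, 339 and 187 percent and Igfbp7 at 1.05, 2.46, 77.4 and 70.6 percent. The endothelial marker median showed the same split, at 1.01, 1.64, 102 and 93.4 percent, and the pericyte marker median was 0.669, 2.92, 41.9 and 43.1 percent. Igf1r stood at 9.75, 11.1, 64.8 and 72.4 percent, and the summed RPKM of 6 neutrophil markers was 40.9, 8.46, 1508 and 511 in the same libraries, against at most 43.2 in healthy stroma. Of those 6 markers, Csf3r and Cxcr2 were called higher in tumor stroma. The mitochondrial share of counts was 55.4, 62.9, 27.4 and 24.8 percent in replicates 1 to 4. The neutrophil, endothelial and pericyte markers were thus all higher in the same libraries, replicates 3 and 4. The part of each of these cell types in the levels of Igf1r, Igfbp3 and Igfbp7 was not tested. Igf2r moved little among the 4 libraries, at 49.3 to 63.7 percent.

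**Figure D3:**
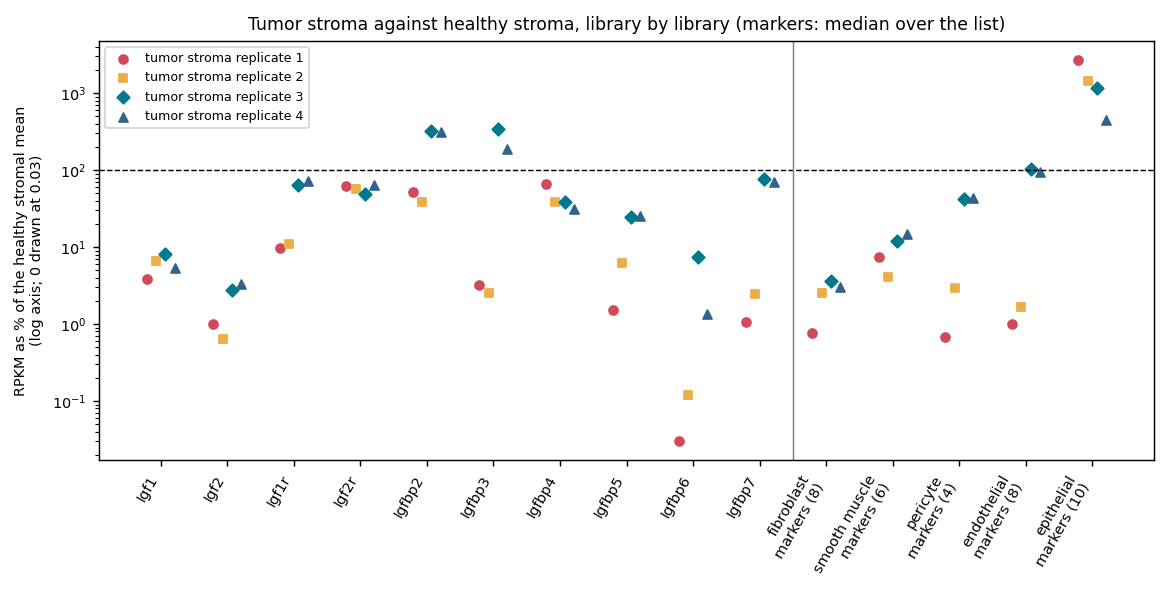
Each tumor stromal library as a percentage of the healthy stromal mean RPKM, on a log axis, for the 10 genes and for the median of 5 marker lists, with 100 percent dashed and 0 drawn at 0.03. Igf1 and Igf2 lie between 0.641 and 8.22 percent in all 4 libraries, while Igfbp3 and Igfbp7 are below 4 percent in replicates 1 and 2 and above 70 percent in replicates 3 and 4.

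Without replicates 1 and 2 of the tumor stroma, 3 members were called, all lower, and the share of all genes called in that fit is not given here. Igf1 then fell by 3.61 ± 0.601 on the log2 scale (adjusted p = 0.0179) and Igf2 fell by 4.76 ± 0.559 (adjusted p = 0.00588). Igfbp5, which had 0.702, 2.93, 11.6 and 11.9 RPKM in tumor stroma, was not called by edgeR with all libraries (log2 fold change -2.47 ± 0.723, adjusted p = 0.0656), was called there by DESeq2 (-2.45 ± 0.709, adjusted p = 0.00478) and limma-voom (-3.13 ± 0.737, adjusted p = 0.0328), and was called by edgeR without those 2 (-1.70 ± 0.248, adjusted p = 0.0114). Igfbp3 was not called in either fit, at 0.69 ± 1.26 (adjusted p = 0.783) with all libraries and 1.68 ± 0.520 (adjusted p = 0.110) without the 2, and its sign turned in other fits. For Igfbp6 the fit gave -5.26 ± 1.59 (adjusted p = 0.0733), with 0, 0.0137, 0.836 and 0.155 RPKM in tumor stroma.

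From the wider pathway, 31 genes of IGF binding, proteolysis, receptors and signaling were followed, of which 30 could be tested in stroma. Stc2, an inhibitor of the protease that cleaves Igfbp4, fell by 2.60 ± 0.443 (adjusted p = 0.0104), and Ghr, the growth hormone receptor, fell by 2.38 ± 0.410 (adjusted p = 0.0110). Igf2bp1, an RNA-binding protein of Igf2 transcripts, was higher by 3.50 ± 0.858 (adjusted p = 0.0368), although both means were under 0.1 RPKM and the call was lost in 6 of 8 fits that left out 1 library. The other 27 tested genes, including Insr, Irs1 and Grb10, were not called. These were 1 higher and 2 lower calls among 30 tested genes, where 3.39% of all genes were called higher and 5.01% lower.

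Tumor epithelium showed a different set of changes, with Igfbp3 and Igfbp4 higher and Igf1r, the signaling receptor, lower. Of 8 members tested, 2 were called higher and 1 lower, where 15.4% of 16085 genes were called in either direction. Igfbp4 was at 2.82, 2.20, 7.98 and 5.47 RPKM in tumor epithelium against 0.251, 0.0855, 0.126 and 0.0265 RPKM in healthy epithelium, with no overlap. It rose by 4.58 ± 0.503 on the log2 scale (adjusted p = 1.57e-04), and the call held with any 1 library left out. Igfbp3 was at 0.868, 0.675, 1.04 and 0.736 RPKM against 0.158, 0.00248, 0.0536 and 0.0371 RPKM, higher by 2.86 ± 0.815 (adjusted p = 0.0289). That call was lost without healthy replicate 3 and without each of the 4 tumor libraries, with adjusted p up to 0.0768. Igf1r moved the other way, from 0.644, 1.20, 1.01 and 0.340 RPKM in healthy to 0.226, 0.171, 0.370 and 0.238 RPKM in tumor epithelium. The ranges overlapped in RPKM but not on levels scaled by TMM, at 0.887 to 1.64 in healthy and 0.181 to 0.274 in tumor epithelium. The fit gave -2.36 ± 0.314 (adjusted p = 4.66e-04). It was called with any 1 library left out but not by limma on log2(RPKM + 1) (adjusted p = 0.0819).

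Healthy epithelial replicate 4 had the most mitochondrial counts, 83.9%, and without it the log2 differences were -2.11 ± 0.292 for Igf1r (adjusted p = 0.00103) and 4.52 ± 0.585 for Igfbp4 (adjusted p = 8.13e-04). RPKM were shifted between these groups, since 20.6% of all genes were higher in every tumor library and 2.44% lower. Igf2, at a log2 fold change of 2.47 ± 0.850, had an adjusted p of 0.0619 and depended on tumor replicate 2, without which it was 1.30 ± 0.700. For Igf1 the value was 1.35 ± 0.717 (adjusted p = 0.216), and for Igf2r 0.36 ± 0.230 (adjusted p = 0.309). Besides the 3 calls of edgeR, DESeq2 called Igf2 (2.53 ± 0.839, adjusted p = 0.0117) and limma-voom called Igf1 (2.13 ± 0.657, adjusted p = 0.0336), each higher in tumor. Igfbp2 was not tested but was at least 2.89-fold higher, from 0 counts in each healthy library to 7 to 32 counts in the tumor libraries. Stromal markers were low in both groups, with fibroblast sums of 0.630 to 2.51 RPKM in tumor and 0.123 to 3.00 RPKM in healthy epithelium, while endothelial sums were 4.59 to 5.32 against 0.186 to 1.24 RPKM. The part of the endothelial signal in the Igfbp3 result was not tested.

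The wider list held more calls in epithelium than in stroma, with 7 of 28 tested genes higher and 2 lower, against 7.52% and 7.88% of all genes. All genes were called more often in epithelium too, since the shares in stroma were 3.39% higher and 5.01% lower. Irs1, the adaptor that carries IGF1R and insulin receptor signals to PI3K, went from 0.0346 ± 0.0359 to 2.89 ± 0.468 RPKM (SD, n = 4), a log2 difference of 5.41 ± 0.815 (adjusted p = 9.71e-04). Grb10 and Grb14, adaptors that bind and restrain these receptors, were higher by 3.53 ± 0.559 (adjusted p = 0.00125) and 4.47 ± 0.619 (adjusted p = 5.95e-04). Htra1, a secreted protease that cleaves binding proteins, was higher by 5.32 ± 1.16 (adjusted p = 0.00793), with 4.79 to 10.3 over the fits that left out 1 library. Igfals, the subunit that stabilizes circulating IGF complexes, and H19, the noncoding RNA beside Igf2, had at most 3 counts in each healthy library and were at least 18.3-fold and at least 11.9-fold higher. Stc1 was called too (3.81 ± 1.17, adjusted p = 0.0403) but lost the call in 7 of 8 fits that left out 1 library, and was 7.11 without healthy replicate 4. Insrr, a relative of the insulin receptor, fell by 2.82 ± 0.604 (adjusted p = 0.00707), and Pappa2, a protease of binding proteins, had 0.00130 RPKM in tumor against 0.0740 RPKM in healthy epithelium. Downstream kinases and transcription factors of the list, such as Pik3ca, Akt1 and Foxo1, were not called and had log2 differences between 0.20 and 0.38.

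**Figure D4:**
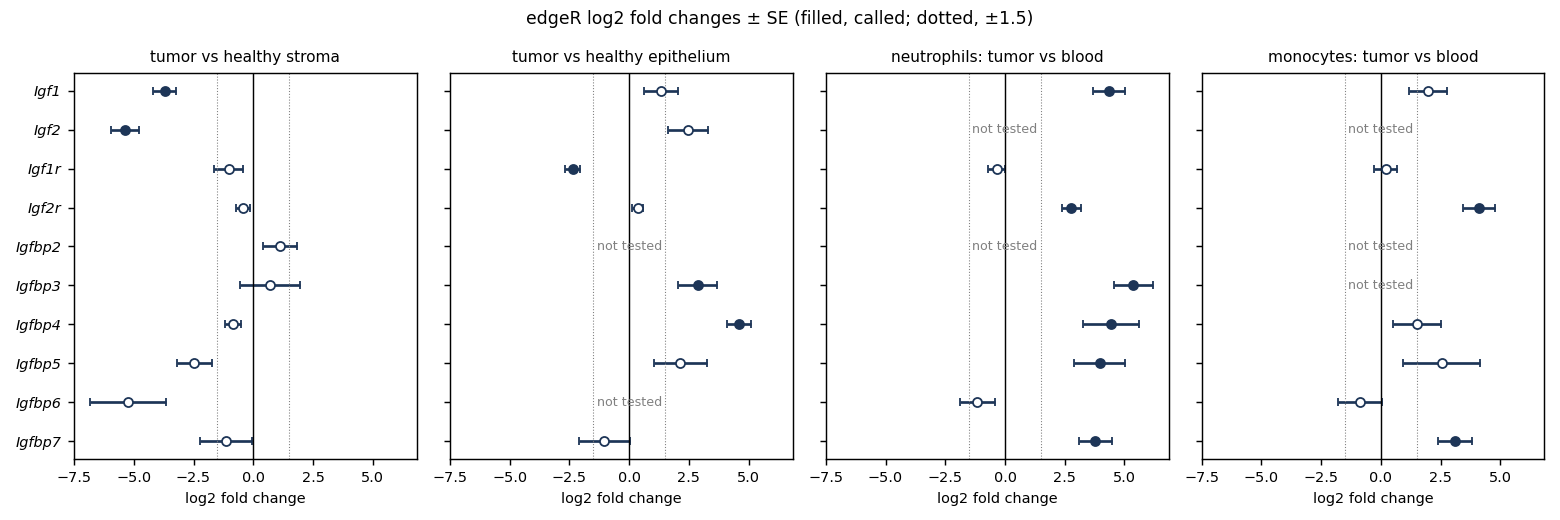
Log2 fold changes ± SE from the edgeR fits for the 10 genes in 4 comparisons of tumor with healthy or blood cells (4 libraries against 4). Filled points are called, dotted lines are at -1.5 and 1.5, and "not tested" marks genes with too few counts. Called points lie left of 0 for both ligands in stroma and for Igf1r in epithelium, and right of 0 for 6 genes in neutrophils and 2 in monocytes.

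Whether the tumor difference itself differed between stroma and epithelium was tested with an interaction term on 16 libraries. Among the 10 members, 6 were called lower in the stromal than in the epithelial response and none higher, where 6.81% of 20901 genes were called lower. Igf2 gave -7.79 ± 1.08 (adjusted p = 3.13e-04), Igf1 -5.15 ± 0.820 (adjusted p = 7.97e-04) and Igfbp4 -5.41 ± 0.637 (adjusted p = 1.01e-04). These 3 calls held with any 1 library left out and without replicates 1 and 2 of the tumor stroma. The calls of Igfbp2, Igfbp5 and Igfbp6 did not, with 3 calls in all when healthy epithelial replicate 3 or tumor epithelial replicate 2 was left out. Igf1r gave 1.33 ± 0.696 (adjusted p = 0.228), so that its lower call in epithelium was not shown to differ from stroma.

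Stroma and epithelium were also compared within the tumor. No member of 9 tested was called by edgeR, where 0.0294% of 16985 genes (5 genes) were called. At an unadjusted p under 0.05 there were 5 members, DESeq2 called 4 and limma-voom none. Without tumor stromal replicates 1 and 2 together, edgeR called 5 members, all higher in stroma, and leaving out either of those 2 alone gave 4. With all libraries, the edgeR log2 differences of the 4 that DESeq2 called were 2.31 ± 0.337 for Igf1 (adjusted p = 0.0588), 2.74 ± 0.673 for Igf1r (adjusted p = 0.0968), 5.94 ± 1.496 for Igfbp3 (adjusted p = 0.104) and 7.15 ± 1.56 for Igfbp7 (adjusted p = 0.0744). The neutrophil marker sums were 0.921 to 4.404 RPKM in tumor epithelium, against the 8.46 to 1508 of tumor stroma, and their part in the Igf1r difference was not tested. By title, 2 animals gave both a stromal library (replicates 3 and 4) and an epithelial one (replicates 1 and 2). With the animal as a block, where the difference rests on those 2 pairs, edgeR called 5 members, all higher in stroma. The 0.0294% belongs to the edgeR fit with all libraries and no block. Shares of all genes in the other fits are not given here, so their counts have no background beside them.

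Neutrophils in the tumor differed from blood neutrophils of the same kind of mouse in 6 of 8 members tested, all higher, where 11.9% of 13674 genes were called higher. The median log2 fold change of the 8 was 3.87, against 0.11 for all genes. No blood library held more than 8 counts of Igf1, 11 of Igfbp4 or 16 of Igfbp3. Members with so few blood counts could enter the test through the tumor libraries but could hardly be called lower. The count of calls and the median are limited by this. Igf1 was at 0.0102, 0.0127, 0.0142 and 0.00928 RPKM in blood, below each of the tumor values given above, and was higher by 4.34 ± 0.671 (adjusted p = 0.00183). Igf2r rose from 0.583, 0.395, 0.185 and 0.395 RPKM to 4.54, 1.22, 2.39 and 2.81 RPKM, a log2 difference of 2.77 ± 0.406 (adjusted p = 0.00151). Igfbp3 rose from 0.0168 to 0.0795 RPKM in blood to 3.34, 3.14, 1.81 and 0.502 RPKM, or by 5.37 ± 0.820 (adjusted p = 0.00183), and Igfbp7 from 0.126 to 0.502 RPKM to 7.45, 3.19, 1.56 and 3.36 RPKM, or by 3.78 ± 0.690 (adjusted p = 0.00409). For these 4 genes no tumor library overlapped a blood library, as for 13.6% of all genes, and each call held with any 1 library left out. Igf1r itself did not pass, at -0.36 ± 0.342 (adjusted p = 0.512), nor did Igfbp6 at -1.16 ± 0.729 (adjusted p = 0.303).

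Calls of Igfbp4 (log2 difference 4.43 ± 1.16, adjusted p = 0.0250) and Igfbp5 (3.96 ± 1.06, adjusted p = 0.0268) rested on fewer libraries. Igfbp4 was at 1.79, 0.0164, 0.156 and 0.391 RPKM in tumor neutrophils, overlapping the blood range, and lost the call without tumor replicate 1 (3.00 ± 0.948, adjusted p = 0.0633) or without any 1 blood library. Igfbp5 lost it without tumor replicate 3 or without blood replicate 1, 3 or 4, with adjusted p up to 0.0811. Without tumor replicate 1, the library with the highest epithelial sum, Igf1 was higher by 4.42, Igf2r by 2.58, Igfbp3 by 5.33 and Igfbp7 by 3.51 on the log2 scale, and all 4 were called.

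Markers of some other cell types moved in the same direction, and those of others did not. In tumor against blood neutrophils, 8 of 9 tested epithelial markers, 3 of 7 fibroblast markers and 1 of 5 endothelial markers were called higher. The macrophage list had 2 of 5 higher (C1qb and Mrc1) and the pericyte list 1 of 2 (Rgs5). None of 4 smooth muscle, 3 erythroid and 5 monocyte markers tested was called higher. Chil3 of the monocyte list was called lower, and the median log2 fold change of the erythroid markers was -3.81. As a percentage of the mean in tumor stroma, Igf1 in tumor neutrophils stood at 42.4 and Igf2r at 77.3, Igfbp3 at 4.26, Igfbp5 at 7.76 and Igfbp7 at 3.21. The median over the fibroblast list was 6.13 to 21.6 percent across the 4 libraries, and over the endothelial list 0.0661 to 6.42 percent. Against tumor epithelium, Igf1 stood at 202 percent and Igf2r at 71.1, with 4.90 to 79.5 percent for the epithelial list. The part of these cells in the 6 results was not tested. In the wider list only Insr was called among 17 tested genes, lower by a log2 value of -1.69 ± 0.523 (adjusted p = 0.0474). It lost the call in 7 of 8 fits that left out 1 library. The share of all genes called lower in this comparison is not given here.

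Tumor monocytes shared the Igf2r difference. The gene was at 0.0513, 0.0315, 0.206 and 0.226 RPKM in blood monocytes of tumor-bearing mice and at 2.01, 1.52, 2.52 and 1.34 RPKM in tumor monocytes, without overlap. It rose by 4.11 ± 0.654 (adjusted p = 0.00189), called with any 1 library left out. Igfbp7 was at 0.166, 0.878, 0.212 and 0.339 RPKM against 0.0366 to 0.0739 RPKM in blood and was higher by 3.09 ± 0.726 (adjusted p = 0.0147), a call lost without blood replicate 4 (adjusted p = 0.0595). These were 2 higher calls and no lower call among 7 members tested, where 7.76% of 15280 genes were called higher. Igfbp7 had at most 6 counts in each blood library, so it could hardly be called lower. Leaving out blood replicate 2 raised the count to 4, with Igfbp3 and Igfbp5 added. Igfbp3 was not among the 7 tested with all libraries and had at most 2 counts in each blood library. Igfbp5 had 0, 54, 0 and 2 counts in blood replicates 1 to 4. These 2 added calls thus compare tumor libraries with blood values at the floor. Igf1 at 1.97 ± 0.782 (adjusted p = 0.115) and Igf1r at 0.19 ± 0.471 (adjusted p = 0.823) were not called. Epithelial sums were 1.85 to 35.7 RPKM in tumor and below 1 RPKM in blood monocytes, and 4 of 6 tested epithelial markers were called higher. Of 7 macrophage markers, 4 were called higher (C1qa, C1qb, C1qc and Mertk), with sums of 22.9 to 60.2 RPKM in tumor and 24.4 to 77.5 RPKM in blood monocytes, and 1 of 4 endothelial and 1 of 2 pericyte markers were higher too. In tumor monocyte replicate 1, Igf2r was at 2.01 RPKM, and the epithelial and fibroblast sums were the lowest of the 4 (1.85 and 0.0932 RPKM). The endothelial list median, as a percentage of tumor epithelium, was 14.6 in that library. It was 34.6 in replicate 2, 2.60 in replicate 3 and 11.4 in replicate 4. As a percentage of tumor stroma, the reference used above for this list in tumor neutrophils, it was 0.374, 0.865, 0.0528 and 0.252 in replicates 1 to 4. The part of those other cells in the Igf2r and Igfbp7 results was not tested.

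From the wider list, 3 of 20 tested genes were called higher in tumor monocytes and none lower, where 7.76% of all genes were called higher. Irs2, the insulin receptor substrate prominent in myeloid cells, was higher by 2.42 ± 0.360 (adjusted p = 0.00132) with 1.72 RPKM in blood and 7.70 RPKM in tumor monocytes. Irs1 and Htra1 were called at 5.33 ± 1.34 and 4.84 ± 1.32, and each lost the call in 4 of 8 fits that left out 1 library. The blood-to-tumor difference was also compared between monocytes and neutrophils, with 0 of 8 members called by edgeR, 1 at an unadjusted p under 0.05 (Igf1) and none by DESeq2 or limma-voom, where 3.95% of 17465 genes were called. For Igf2r that difference was 1.48 ± 0.743 (adjusted p = 0.267).

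Directly compared in the tumor, 3 of 8 members tested were lower in monocytes than in neutrophils, where 4.65% of 15003 genes were called lower. Igf1r was lower by a log2 value of -3.22 ± 0.444 (adjusted p = 0.00239) and kept its call with any 1 library left out. Igfbp7 (-3.74 ± 0.772, adjusted p = 0.0144) lost its call without monocyte replicate 1 or 4, with adjusted p up to 0.0633. Igf1 (-2.82 ± 0.775, adjusted p = 0.0487) lost it without any 1 monocyte library and without neutrophil replicate 3 or 4, with adjusted p up to 0.15. By title, 3 animals gave both a monocyte and a neutrophil library (replicates 2, 3 and 4 of each). With the animal as a block, Igf1r was called (-3.61 ± 0.460, adjusted p = 0.0101), while Igfbp7 (-3.36 ± 0.960, adjusted p = 0.107) and Igf1 (-3.10 ± 1.21, adjusted p = 0.225) were not. In healthy blood, 4 of 7 members were lower in monocytes and none higher, where 16.7% of 15033 genes were called lower. Igf1r was lower there by -4.30 ± 0.416 (adjusted p = 3.9e-05), Igf2r by -3.35 ± 0.273 (adjusted p = 1.47e-05), Igfbp3 by -4.93 ± 0.840 (adjusted p = 9.82e-04) and Igfbp6 by -4.42 ± 1.16 (adjusted p = 0.0100). Each of these 4 calls held with any 1 library left out. Healthy blood monocyte libraries held at most 4 counts of Igfbp3, which could enter the test only through the neutrophils and could hardly be called higher. Igfbp6 had 18, 0, 2 and 6 counts in monocyte replicates 1 to 4. The sizes of these 2 differences are therefore uncertain. Stroma against monocytes in the tumor gave 5 higher calls of 9 tested and none lower, where 11.9% of 16840 genes were called higher. They were Igf1 (3.30 ± 0.582, adjusted p = 0.00508), Igfbp3, Igfbp4, Igfbp5 and Igfbp7, and without monocyte replicate 2 those called were Igf1, Igfbp4 and Igfbp7. Without tumor stromal replicates 1 and 2, Igfbp4 had an adjusted p of 0.0533 and the other 4 were called.

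Blood cells of tumor-bearing and healthy mice were compared last. In neutrophils edgeR called 0 of 6 members tested, where 4.01% of 13360 genes were called, with 1 at an unadjusted p under 0.05 and none by DESeq2 or limma-voom. That gene, Igf2r, was at 1.12, 0.983, 0.705 and 0.692 RPKM in healthy and 0.583, 0.395, 0.185 and 0.395 RPKM in tumor-bearing mice, without overlap, at a log2 difference of -1.14 ± 0.307 (adjusted p = 0.0540). In monocytes edgeR called 0 of 5, where 0.209% of 15313 genes were called, with 1 at an unadjusted p under 0.05 and none by limma-voom. Igfbp6 was that gene, at 0.237, 0.0291 and 0.0876 RPKM in healthy replicates 1, 3 and 4, with 0 counts after rounding in replicate 2, and at 1.08, 1.18, 0.782 and 0.212 RPKM in tumor-bearing mice, with a log2 difference of 3.30 ± 0.981 (adjusted p = 0.257), and DESeq2 called it.

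Genes with the most similar pattern across the 40 libraries were found by Pearson's r on log2(RPKM + 1) among 4904 genes with a mean of at least 5 RPKM in some group. The values are descriptive, since libraries of a group share their cell type. Closest to Igf1 was Col1a2 (r = 0.996), a collagen gene of the fibroblast list, and closest to Igf2 was Tcf21 (r = 0.974), a transcription factor gene of mesenchyme. For Igf1r it was Dennd3 (r = 0.940), which like Igf1r was highest in healthy blood neutrophils, and for Igf2r Cd81 (r = 0.906). Igfbp3 ran closest to Sox7 (r = 0.987), with Col4a1 (r = 0.977) next, Igfbp5 to Bgn (r = 0.977) and Igfbp7 to Sparc (r = 0.976). Igfbp4 was nearest to Msrb3 (r = 0.981), Igfbp2 to Stc1 (r = 0.919) and Igfbp6 to Timp2 (r = 0.814), the lowest of the 10 best matches.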

How the data were processed

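RNA of sorted cells was amplified, made into libraries and sequenced as single reads by the authors, who mapped it to mm10. The submitters' processing notes name bcl2fastq, Bowtie2 and limma. The annotation release, the use of strand and the treatment of multiply mapped reads are not given in the sources used here. The authors deposited expected counts, without normalization, and RPKM values for 45706 genes in 40 libraries. RPKM are the deposited counts times 1 constant per gene and 1 per library, and 99.6% of nonzero counts were not whole, so counts were rounded.

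Each comparison used its own groups of 4 libraries, filterByExpr, TMM and the robust quasi-likelihood test (edgeR 4.0.16, R 4.3.3), with Benjamini-Hochberg adjustment over all genes tested. A gene was called at an adjusted p under 0.05 with a log2 fold change past 1.5 in either direction. Groups with at most 3 counts in every library gave lower bounds. P-values measure the spread between these libraries, which may be partly technical. Comparisons share groups with each other, so their values are given side by side only. Scripts were tested on simulated data. All 10 members are named, with 31 pathway genes and, for each member, the 3 genes of highest r. The members and lists were chosen with earlier results of these data known. Alternatives were DESeq2 1.42.0, limma-voom (limma 3.58.1), limma on log2(RPKM + 1) or log2(RPKM + 0.1), RLE factors, no filter, no fold threshold, all 40 libraries in 1 fit, the replicate number as a block, and leaving out libraries. Titles name the same animal in 3 tumor monocyte and neutrophil pairs (correlations of deviations -0.0202 to 0.0458), 2 tumor stromal and epithelial pairs (0.0488 to 0.0954) and 2 animal pools of healthy blood (0.0123 to 0.349). A block by animal there, and leaving out tumor stromal replicates 1 and 2 together, were chosen after seeing the data. Symbols were matched by identifier to GENCODE M21, and start regions come from RefSeq tables, in which all 10 members matched. Depth, as counts on genes, is given in the results, and it limits genes with few counts.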

Additional observations from a re-analysis of the deposited data

Results flagged for a closer look

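Single libraries stood apart from the other 3 of their group for 2 values, of 41 sets of 4 libraries in which a member reached 1 RPKM. Chance flags about 1 in 20 such sets. Igfbp6 in healthy stromal replicate 4 was 37.6 RPKM, against 1.81 to 3.62 RPKM in the others, and that library also had the highest fibroblast sum. Igfbp7 in healthy blood monocyte replicate 2 was 6.22 RPKM, against 0.0119 to 0.0924 RPKM in the others. That library too had the highest fibroblast sum of its group, 2.05 RPKM against 0.0496 to 0.239 in the others. Igfbp5 was 0.232 RPKM there, against at most 0.00285 RPKM in the others.

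The tumor response differed between stroma and epithelium for 6 members in the interaction test of edgeR. The log2 differences of the responses were -5.15 for Igf1 (adjusted p = 7.97e-04), -7.79 for Igf2 (adjusted p = 3.13e-04), -5.99 for Igfbp2 (adjusted p = 0.0337), -5.41 for Igfbp4 (adjusted p = 1.01e-04), -4.58 for Igfbp5 (adjusted p = 0.0469) and -8.09 for Igfbp6 (adjusted p = 0.0465). Healthy epithelium had at most 3 counts of Igfbp2 and of Igfbp6 in each library, so those 2 values depend on the prior count of the fit and are no bounds. Leaving out 1 library lost the call of Igfbp2 in 5, of Igfbp5 in 11 and of Igfbp6 in 12 of 16 fits.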

How the results depend on the processing

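Counts of called members were recomputed under each alternative. RPKM with a pseudocount of 1 gave 1 call in tumor epithelium, 1 in tumor neutrophils, 0 in tumor monocytes, 3 for tumor stroma against monocytes and 1 in healthy blood, and with 0.1 it gave 4 in tumor stroma. The fit of all 40 libraries gave 4 calls for tumor against blood monocytes, 4 for tumor stroma against epithelium and 5 for tumor monocytes against neutrophils. DESeq2 gave 1 in monocytes of tumor-bearing against healthy blood and 4 for tumor stroma against epithelium, and limma-voom gave 3 for tumor stroma against monocytes and 3 for the stromal minus epithelial response. Without tumor stromal replicates 1 and 2, tumor stroma against epithelium had 5. Leaving out 1 library gave 2 to 4 calls in tumor against blood monocytes, 0 to 4 for tumor stroma against epithelium, 1 to 3 for tumor monocytes against neutrophils, 3 to 6 for tumor stroma against monocytes and 3 to 6 for the stromal minus epithelial response. The cause of these moves was not tested. Shares of all genes called under the alternatives are not given here, so these counts have no background beside them.

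Signs turned only for members not called. Igfbp3 in stroma was -1.32 by limma-voom, -1.34 with the replicate block, -1.28 and -1.64 by limma on RPKM with pseudocounts of 1 and 0.1, and -0.29 to 1.11 with 1 library left out. Igfbp7 in epithelium was 0.35 by limma-voom and 0.064 and 0.28 by limma on RPKM with pseudocounts of 1 and 0.1. Igf1r in tumor monocytes was -0.093 to 0.43 with 1 library left out, below 0 without blood replicate 2 or tumor replicate 1. Over single members and pathway genes, the alternatives kept direction and call in 931 of 1089 values, lost the call in 139, gained it in 12 and turned the sign in 7.

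Titles place the same animal in 3 same-numbered pairs of tumor monocytes and neutrophils and in 1 such pair in each of 4 other comparisons, so the replicate number as a whole does not mark animals. In none of the 11 pairwise comparisons did every same-numbered pair correlate above 0.1 in its deviations from the group means, and at most 3 of 4 libraries correlated best with their own number. With the replicate number as a block the count of calls went from 2 to 1 in tumor against blood monocytes, from 6 to 4 in tumor against blood neutrophils, from 3 to 2 in tumor monocytes against neutrophils (Igf1 lost), from 5 to 4 in tumor stroma against monocytes (Igfbp5 lost) and from 6 to 4 for the stromal minus epithelial response. With the animal as a block, chosen after seeing the data and run where at least 2 animals were shared, there were 5 calls for tumor stroma against epithelium, 1 for tumor monocytes against neutrophils, 6 for healthy blood monocytes against neutrophils and 0 for the monocyte minus neutrophil response.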
